A study of Homo sapiens with 8 samples.

Results

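The receptors that hold myeloma cells in the bone marrow were examined here: 10 genes, comprising integrins (ITGA4, ITGB1, ITGB7, ITGAL, ITGB2), chemokine receptors (CXCR4, CCR1, CCR10) and adhesion molecules (CD44, NCAM1). They were chosen by name as receptors of myeloma cells, with earlier results of these data known. A gene was measured if a row of the deposited table carried its symbol in the platform annotation, and the row with the highest mean was taken. That left 5 of the 10 genes, CXCR4, CCR1, CCR10, CD44 and NCAM1, each read by 1 row, out of 14884 gene symbols with a row. The 5 integrins matched no named row by symbol, gene ID or transcript accession and were not analysed here.

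Plasma cells reach the marrow by following chemokines that stromal cells secrete and stay there by gripping the matrix and the stroma. CXCR4 is the receptor for CXCL12, the main homing chemokine of the marrow, CCR1 binds CCL3 and CCL5, and CCR10 binds the mucosal and skin chemokines CCL27 and CCL28. CD44 is a receptor for the matrix polymer hyaluronan, and NCAM1 (CD56) is an adhesion molecule of the immunoglobulin superfamily that many myelomas carry and normal plasma cells mostly lack. Integrin alpha 4, paired with beta 1 or beta 7, grips VCAM1 and fibronectin.

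RNA of 2 established human multiple myeloma lines, NCI-H929 and MM1.S, was measured on Human Gene ST arrays from Affymetrix. Cells of both lines held either a short hairpin directed at SIRT6 (shSIRT6), which encodes a chromatin deacetylase that uses NAD, or a scramble hairpin (shSCR, here scramble), so that all cells held a hairpin construct. As background, NCI-H929 is known for a translocation that activates NSD2 and MM1.S for one that activates MAF. Each of the 4 groups had 2 arrays, 8 in all, and the labels do not say whether they were separate cultures. The p-values therefore reflect array-to-array spread alone, and this may be technical.

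Values are log2 expression levels, and a difference between groups is a log2 difference with the standard error (SE) of limma fitted to all 8 arrays. Tests ran over the 12734 genes with a mean above 3.045, and a gene counts as called where its p, adjusted by Benjamini-Hochberg over all of them, was under 0.05. All 5 measured receptors passed that filter. Over all rows the correlation was 0.989 to 0.992 within a group, 0.985 to 0.989 between constructs of a line and 0.942 to 0.950 between the lines. SIRT6 itself was at 6.25 and 6.31 with shSIRT6, against 6.53 and 6.97 with scramble in NCI-H929. In MM1.S it was at 5.60 and 5.78 with shSIRT6, against 6.09 and 5.88 with scramble. The differences, −0.47 ± 0.16 in NCI-H929 and −0.295 ± 0.16 in MM1.S, were not called (limma adjusted p = 0.276 and 0.355). In each line both shSIRT6 arrays were below both scramble arrays, as for 10.5% of all genes tested. Of 12 plasma cell markers 9 had a row, and their mean level per array was 9.06 to 9.31. Those of T and NK cells (6 with a row) lay between 3.985 and 4.32, of monocytes (9) between 4.15 and 4.53, of endothelium (4) between 4.17 and 4.49 and of stroma (3) between 3.05 and 3.38. Single markers departed from these means. Among the plasma cell markers IRF4 was highest, between 11.23 and 11.74 on all arrays. CD27 (4.81 to 5.31) and POU2AF1 (5.19 to 5.48) were lowest. They lay below the endothelial marker ESAM (5.68 to 6.58) and the monocyte marker CD68 (8.44 to 10.47). Arrays of this kind give no true zero, so none of these markers can be said to be absent.

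The upstream sequences of 3 of the 5 receptors are shown, CXCR4, which differed most between the lines among them, CCR1, whose hairpin differences had opposite signs in the 2 lines, and CD44. They are the 250 bases before the transcription start in RefSeq (GRCh38.p14; the deposited rows follow hg19, so the coordinates belong to these sequences only). CXCR4 has 3 start sites in that table and the one farthest upstream was taken. The CXCR4 stretch is chr2:136118150-136118399 (minus strand), the CCR1 stretch chr3:46208314-46208563 (minus strand) and the CD44 stretch chr11:35138921-35139170 (plus strand).
CXCR4: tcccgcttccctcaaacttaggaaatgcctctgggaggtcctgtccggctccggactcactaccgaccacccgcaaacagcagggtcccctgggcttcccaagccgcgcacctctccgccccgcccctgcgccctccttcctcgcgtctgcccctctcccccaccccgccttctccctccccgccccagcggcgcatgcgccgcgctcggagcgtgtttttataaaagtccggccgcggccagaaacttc
CCR1: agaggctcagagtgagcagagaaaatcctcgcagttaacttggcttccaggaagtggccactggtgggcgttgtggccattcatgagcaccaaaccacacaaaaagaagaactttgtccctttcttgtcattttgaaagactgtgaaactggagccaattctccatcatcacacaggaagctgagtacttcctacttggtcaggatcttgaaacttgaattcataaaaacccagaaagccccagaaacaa
CD44: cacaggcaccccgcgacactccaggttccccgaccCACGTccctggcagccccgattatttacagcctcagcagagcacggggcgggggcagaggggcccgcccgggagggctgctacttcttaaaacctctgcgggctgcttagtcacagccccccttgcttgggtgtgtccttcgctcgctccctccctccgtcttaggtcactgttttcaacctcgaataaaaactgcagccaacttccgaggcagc
These were searched on both strands for TGCTGAC, a core of the MAF recognition site, and for ACGTG, the core of hypoxia response elements, and matches are in capitals. The letters TGCTGAC were in none of the 3 stretches (0 matches each), and of 35116 promoter stretches of this length 3.43% held them. ACGTG was found 1 time, in CD44 on the opposite strand, at position −215 from the start, and 18.5% of all stretches held it. CCR10 and NCAM1 had no entry.

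The first comparison asked how far the lines differ in these receptors. NCI-H929 had far more NCAM1 mRNA and far less CXCR4 mRNA than MM1.S, slightly more CD44 and, with the SIRT6 hairpin, less CCR1, while CCR10 did not pass the test. With shSIRT6, 4 of the 5 receptors were called, 2 higher and 2 lower in NCI-H929, where 37.9% of all genes tested were called, 18.4% higher and 19.5% lower. With scramble 3 were called, 2 higher and 1 lower, where 38.3% of all genes were, 20.0% higher and 18.3% lower. The arrays with shSIRT6 and with scramble are separate, but both comparisons use the same 2 lines and the same estimate of the spread. The second set is thus not an independent repeat of the first. The 3 receptors called with scramble, CXCR4, CD44 and NCAM1, were all called with shSIRT6 in the same direction, as were 28.8% of all genes.

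CXCR4 was at 5.55 and 5.56 in NCI-H929 and at 8.40 and 8.49 in MM1.S with shSIRT6. With scramble it was at 5.88 and 5.62 in NCI-H929 and at 8.55 and 8.30 in MM1.S. All 4 NCI-H929 arrays lay at least 2.42 below all 4 MM1.S arrays, a separation in that direction that 20.2% of genes showed at some distance. The difference was −2.89 ± 0.13 (SE) with shSIRT6 and −2.675 ± 0.13 with scramble (limma adjusted p = 5.39e-06 and 7.41e-06). On the linear scale MM1.S had 7.41 times the CXCR4 signal of NCI-H929 with shSIRT6 and 6.39 times with scramble. In bulk RNA, fewer cells that carry a receptor and less RNA in each cell cannot be told apart. With shSIRT6 1.04% and with scramble 1.43% of genes differed more between the lines, in either direction.

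NCAM1 went the other way. Its level was 8.77 and 8.33 in NCI-H929 and 5.37 and 4.69 in MM1.S with shSIRT6, and 8.84 and 8.83 in NCI-H929 and 5.44 and 5.16 in MM1.S with scramble. The lowest NCI-H929 array stood 2.89 above the highest MM1.S array, and 21.2% of genes separated the lines this way. The difference was 3.52 ± 0.24 with shSIRT6 and 3.535 ± 0.24 with scramble (limma adjusted p = 3.70e-05 and 3.56e-05), a fold of 11.5 and 11.6. Scanner values were not used, so whether the MM1.S signal of NCAM1 exceeds the background of its probes was not tested.

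CD44 had a small but called difference. It was at 10.34 and 10.44 in NCI-H929 and at 9.95 and 9.91 in MM1.S with shSIRT6, and at 10.54 and 10.53 in NCI-H929 and 10.17 and 10.04 in MM1.S with scramble. All NCI-H929 arrays were above all MM1.S arrays, by 0.17 at the closest. The difference was 0.46 ± 0.0975 with shSIRT6 and 0.43 ± 0.0975 with scramble (limma adjusted p = 0.00755 and 0.0101), or 1.38-fold and 1.35-fold. The call with scramble was lost without scramble replicate 2 of MM1.S (0.365, adjusted p = 0.0629) and without scramble replicate 1 or 2 of NCI-H929 (adjusted p = 0.0540 and 0.0506).

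CCR1 was lower in NCI-H929 in the arrays with the SIRT6 hairpin. Its level there was 8.19 and 7.92 in NCI-H929 and 9.59 and 9.73 in MM1.S, a difference of −1.605 ± 0.125 (limma adjusted p = 6.89e-05), with MM1.S at 3.04 times the signal of NCI-H929. With scramble it was 8.76 and 8.83 in NCI-H929 and 9.21 and 9.06 in MM1.S, a difference of −0.34 ± 0.125 that was not called (adjusted p = 0.0682, 95% interval −0.63 to −0.05). It was called with scramble under limma's variance model with trend and robust estimation (adjusted p = 0.00734) and without either shSIRT6 array of NCI-H929 (0.049 each). The lines overlapped in neither construct, and the test of whether the line difference depends on the construct was not passed (adjusted p = 0.0611). From high to low the groups ran MM1.S shSIRT6, MM1.S scramble, NCI-H929 scramble, NCI-H929 shSIRT6, with no overlap between neighbours.

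CCR10 showed no ordering by line. It was at 4.79 and 5.32 in NCI-H929 and at 5.17 and 5.56 in MM1.S with shSIRT6, and at 4.95 and 4.95 in NCI-H929 and 5.21 and 4.93 in MM1.S with scramble. The groups overlapped, and the differences of −0.31 ± 0.205 and −0.12 ± 0.205 were not called (limma adjusted p = 0.287 and 0.699). The 95% intervals ran from −0.79 to 0.17 with shSIRT6 and from −0.60 to 0.36 with scramble, so differences of those sizes cannot be told from 0 with these arrays.

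**Figure D1:**
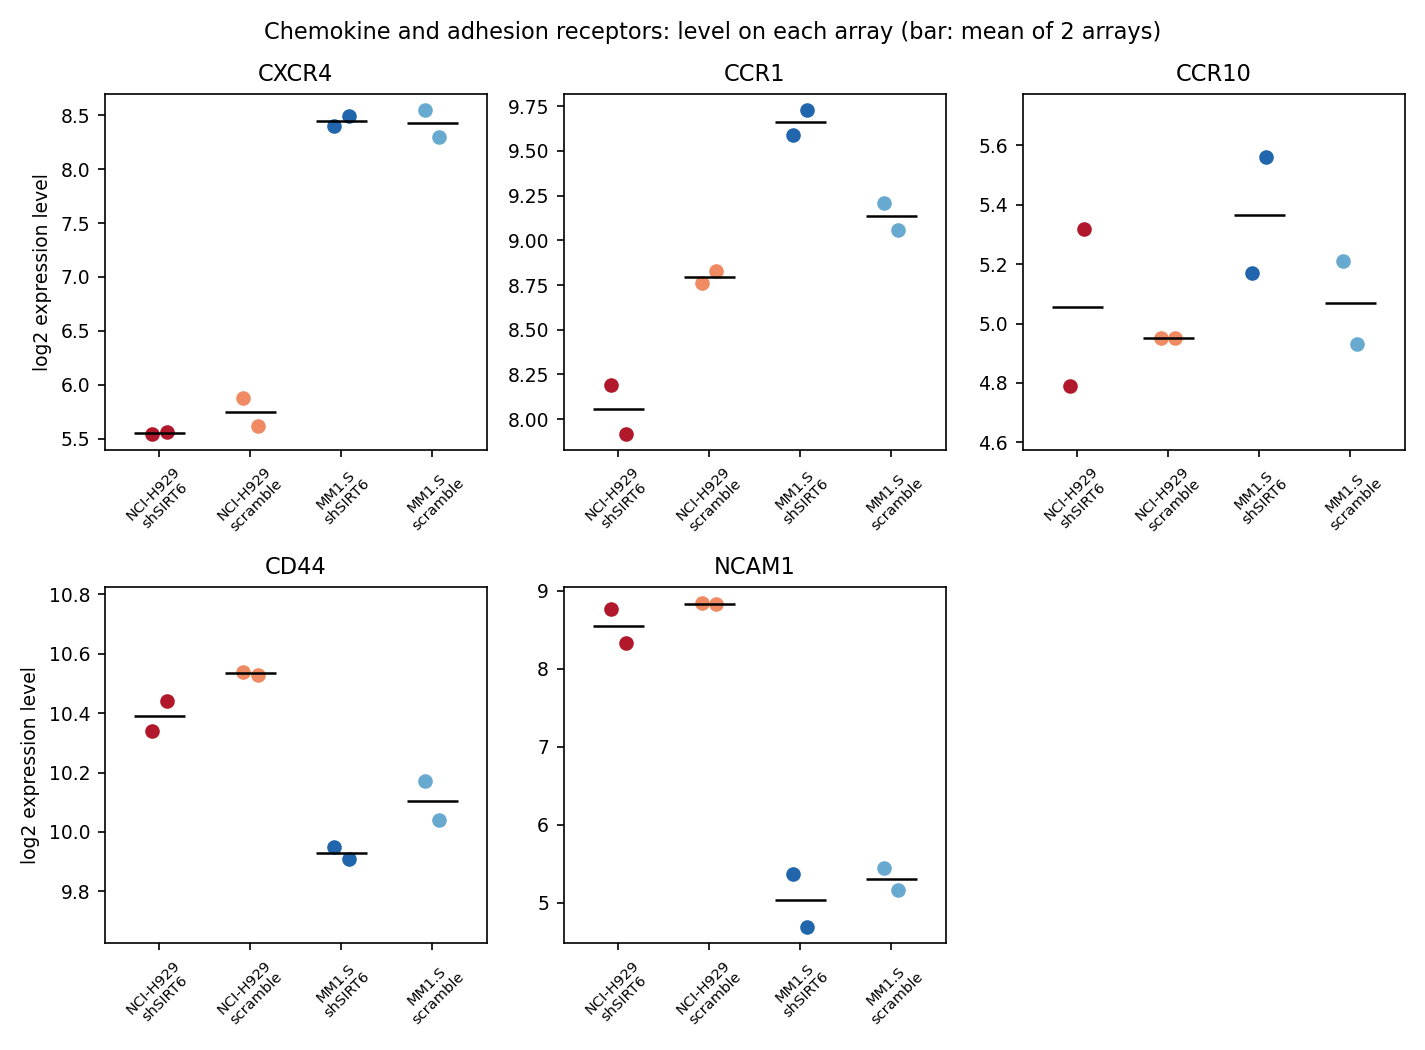
Log2 expression level (vertical axis, a range of its own in each panel) of the 5 measured receptors on every array, with NCI-H929 left of MM1.S and shSIRT6 left of scramble; points are arrays and bars the mean of 2. CXCR4 and NCAM1 separate the lines by over 2 log2 units in opposite directions, and CCR1 is the receptor whose shSIRT6 arrays lie on opposite sides of scramble in the 2 lines.

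**Figure D2:**
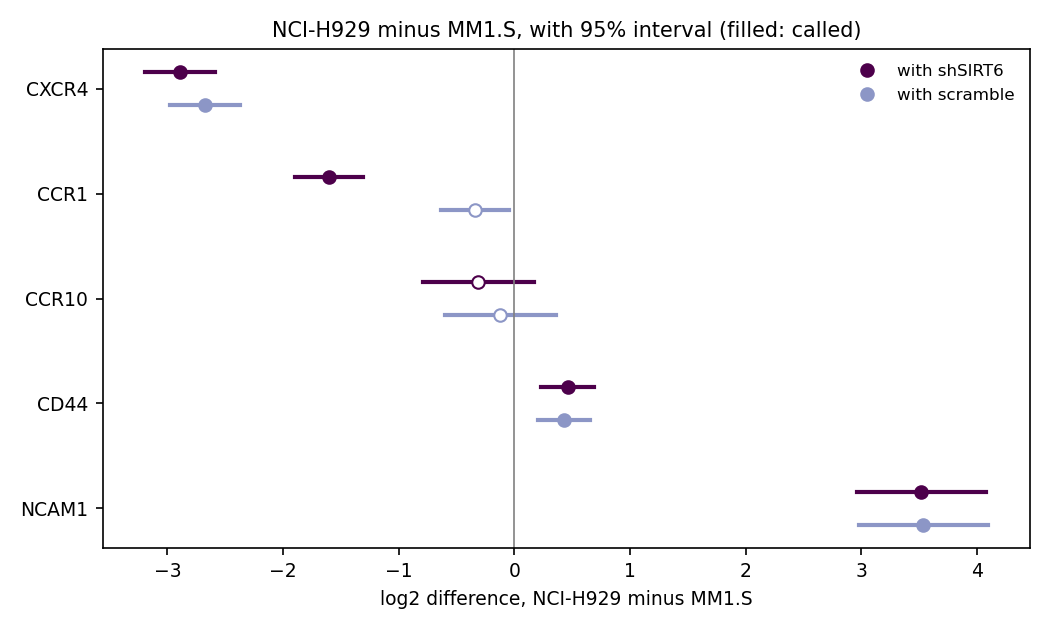
Log2 difference, NCI-H929 minus MM1.S (horizontal axis), of each receptor with shSIRT6 (upper line) and with scramble (lower line); bars are limma's 95% intervals and filled points were called. The intervals of CCR1 run from −1.90 to −1.31 with shSIRT6 and from −0.63 to −0.05 with scramble.

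The next comparison asked what the SIRT6 hairpin did to the receptors in each line. No receptor was called. In NCI-H929 the count was 0 of 5 where 0.0236% of all genes were called, and in MM1.S 0 of 5 where 1.33% were (limma). At an unadjusted p below 0.05, 1 of the 5, CCR1, passed in each line, where 14.5% of all genes did so in NCI-H929 and 19.6% in MM1.S. Of all genes 0.0157% were called higher and 0.00785% lower in NCI-H929, and 0.204% higher and 1.12% lower in MM1.S. At those background shares neither count among 5 genes says much about the receptors. The median of the 5 differences was −0.195 in NCI-H929 and 0.02 in MM1.S, beside −0.045 and 0.005 over all genes tested.

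CCR1 had the largest hairpin differences of the 5 receptors, and in opposite directions in the 2 lines. In NCI-H929 both shSIRT6 arrays (8.19 and 7.92) lay below both scramble arrays (8.76 and 8.83), with a difference of −0.74 ± 0.125 (limma adjusted p = 0.185, 95% interval −1.03 to −0.45). In MM1.S both shSIRT6 arrays (9.59 and 9.73) lay above both scramble arrays (9.21 and 9.06), with a difference of 0.525 ± 0.125 (adjusted p = 0.0889, interval 0.23 to 0.82). In NCI-H929 30% of genes had both shSIRT6 arrays below both scramble arrays, and in MM1.S 24.4% had them above. Of all genes tested 6.24% separated in this opposite way. By size, 0.628% of genes had a larger difference than CCR1 in NCI-H929 and 5.57% in MM1.S. In the test of the difference between the lines (NCI-H929 minus MM1.S) the hairpin effect differed by −1.265 ± 0.18, which was not called (adjusted p = 0.0611, interval −1.68 to −0.85). That test called 0.204% of genes, 0.196% with a positive and 0.00785% with a negative difference, and CCR1 ranked 29 by p where 26 genes passed. Under 2 alternatives it was called, the stricter filter at the 50th percentile (adjusted p = 0.0439) and a variance model that follows the level (adjusted p = 0.000118). That variance model called CCR1 in each line as well (adjusted p = 0.00179 in NCI-H929 and 0.00343 in MM1.S).

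CD44 was lower with shSIRT6 by a like amount in both lines, without passing the test. The shSIRT6 arrays were below the scramble arrays in NCI-H929 (10.34 and 10.44, against 10.54 and 10.53) and in MM1.S (9.95 and 9.91, against 10.17 and 10.04). Separation this way in each line was found for 10.5% of all genes. The differences were −0.145 ± 0.0975 in NCI-H929 and −0.175 ± 0.0975 in MM1.S (limma adjusted p = 0.523 and 0.362). A larger difference, in either direction, was found for 49.4% of genes in NCI-H929 and for 47.3% in MM1.S. Averaged over the lines the difference was −0.16 ± 0.069 (adjusted p = 0.237, interval −0.32 to 0.001), in a comparison that called 0.0864% of genes and 0 receptors. The variance model with trend called it (adjusted p = 0.0327).

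For CXCR4, the central homing receptor, the hairpin differences were −0.195 ± 0.13 in NCI-H929 and 0.02 ± 0.13 in MM1.S (limma adjusted p = 0.521 and 0.950). The 95% intervals, −0.50 to 0.11 and −0.28 to 0.32, leave room for changes of up to 1.25-fold upward in MM1.S and for a fall to 0.708 times the scramble level in NCI-H929. In NCI-H929 the shSIRT6 arrays (5.55 and 5.56) lay below the scramble arrays (5.88 and 5.62), and in MM1.S the groups overlapped. The order of the 4 groups was set by the line, and within a line the constructs were not called as different.

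NCAM1 had hairpin differences of −0.285 ± 0.24 in NCI-H929 and −0.27 ± 0.24 in MM1.S (limma adjusted p = 0.611 and 0.566). Its second shSIRT6 array was the lowest of its line in both cases, at 8.33 and 4.69, and without that array the difference became −0.065 in NCI-H929 and 0.07 in MM1.S. The intervals, −0.84 to 0.27 and −0.83 to 0.29, were the widest of the 5 receptors. CCR10 had differences of 0.105 ± 0.205 in NCI-H929 and 0.295 ± 0.205 in MM1.S (adjusted p = 0.839 and 0.460), and the groups overlapped in both lines. The hairpin effect was not called as different between the lines for CXCR4, CCR10, CD44 or NCAM1 (adjusted p = 0.644, 0.812, 0.944 and 0.990).

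**Figure D3:**
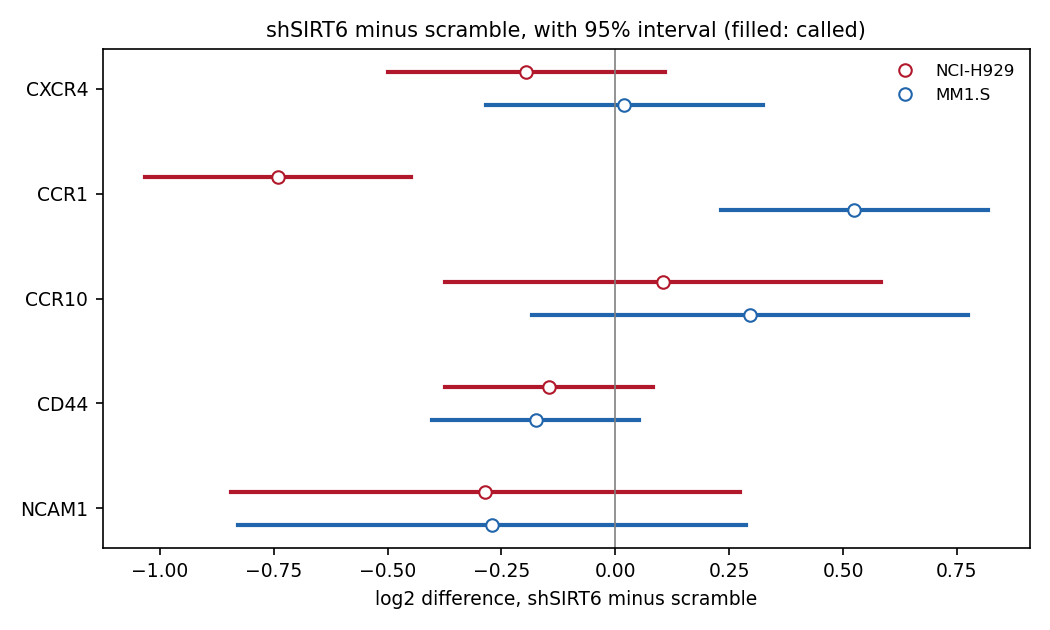
Log2 difference, shSIRT6 minus scramble (horizontal axis), of each receptor in NCI-H929 (upper line) and MM1.S (lower line); bars are limma's 95% intervals and open points were not called. Only the intervals of CCR1 leave out 0, on opposite sides, before adjustment over all genes.

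CCR1 lies in a cluster of chemokine receptor genes, and its measured neighbours were read beside it, a set chosen after CCR1's values were seen. Gene order came from RefSeq. Of the 12 nearest genes with a row 10 were tested, and none (0) was called in either hairpin comparison or in their difference (limma). Of all genes 0.0236% were called in NCI-H929, 1.33% in MM1.S and 0.204% in the difference. XCR1, the receptor of the chemokine XCL1 and the nearest with a named row on one side, was at 5.12 and 5.23 with shSIRT6 and at 5.47 and 5.28 with scramble in NCI-H929. In MM1.S it was at 7.30 and 6.97 with shSIRT6 and at 6.50 and 6.69 with scramble. Its hairpin differences thus had the signs of CCR1's, −0.20 and 0.54 (adjusted p = 0.551 and 0.112). CCR2, the nearest such gene on the other side and a receptor of CCL2, had 0.055 in NCI-H929 and −0.465 in MM1.S (adjusted p = 0.897 and 0.181), signs opposite to CCR1's. With scramble, 3 of the 10 neighbours were lower and 1 was higher in NCI-H929, beside 18.3% lower and 20.0% higher of all genes. The lower ones were XCR1, CCR2 and CCRL2, of which CCR2 and CCRL2 lay near or below the median of all rows in NCI-H929.

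**Figure D4:**
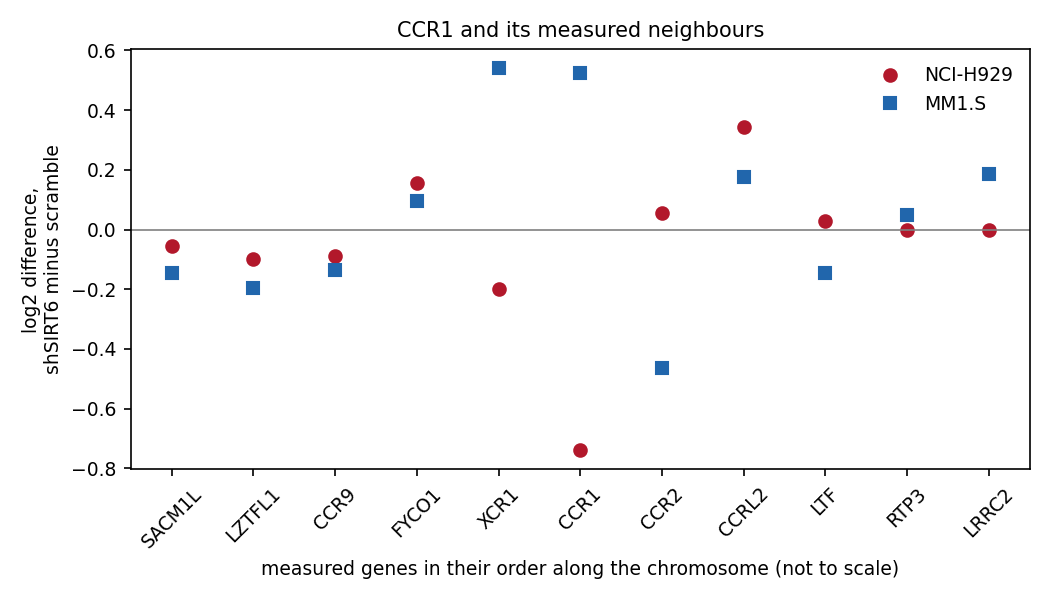
Log2 difference, shSIRT6 minus scramble (vertical axis), of CCR1 and its 10 tested neighbours in their order along the chromosome, in NCI-H929 (circles) and MM1.S (squares). CCR1 shows the widest gap between the lines, and XCR1 beside it has the same signs at −0.20 and 0.54.

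Monocyte and macrophage cells also carry CCR1. Of 10 listed monocyte markers 7 were tested and 0 were called in either hairpin comparison (limma; 1 had an unadjusted p below 0.05 in each, beside 14.5% of all genes in NCI-H929 and 19.6% in MM1.S). CD68, a lysosomal protein of macrophages, stood apart from the other 8 rows, which lay between 2.31 and 5.04 on all arrays. It was at 10.01 and 10.08 with shSIRT6 and at 10.37 and 10.47 with scramble in NCI-H929, a difference of −0.375 ± 0.11 that was not called (adjusted p = 0.238). In MM1.S it was at 8.68 and 8.56 with shSIRT6 and at 8.44 and 8.60 with scramble, and the groups overlapped. Between the lines it was higher in NCI-H929, by 1.425 ± 0.11 with shSIRT6 and 1.90 ± 0.11 with scramble (limma adjusted p = 5.5e-05 and 1.4e-05). Without CD68 the mean of the other rows was 3.805 to 3.84 with shSIRT6 and 3.70 to 3.77 with scramble in NCI-H929, and 3.855 to 3.89 with shSIRT6 and 3.61 to 3.80 with scramble in MM1.S. With CD68 the mean over 9 rows was 4.49 to 4.53 with shSIRT6 and 4.44 to 4.52 with scramble in NCI-H929, and 4.39 to 4.41 with shSIRT6 and 4.15 to 4.33 with scramble in MM1.S. Markers of T and NK cells, which carry NCAM1 among other things, were at 4.29 to 4.32 with shSIRT6 and 3.985 to 4.045 with scramble in NCI-H929, and 4.03 to 4.23 with shSIRT6 and 3.99 on both arrays with scramble in MM1.S, with 0 of 6 called (2 in NCI-H929 and 0 in MM1.S at an unadjusted p below 0.05, beside the same shares of all genes). The part of either list in the receptor values was not tested.

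The genes around these receptors were taken from 8 lists of related genes, of which that of 21 other integrin subunits had no named row (0). With the hairpin in NCI-H929 only CCND2 of those lists was called, where 0.0236% of all genes were. In MM1.S RGS16, ESRP1, FN1, ALCAM and SDC1 were called, where 1.33% of all genes were. The lists were written with earlier results of these data known, so these calls are no test of the lists. None of the 13 tested other chemokine receptors was called in either line (limma, 0; 2 in NCI-H929 and 3 in MM1.S at an unadjusted p below 0.05, beside 14.5% and 19.6% of all genes). Nor was any of the 21 tested genes of integrin activation and linkage, the talins, kindlins and adaptors that switch integrins on (limma, 0; 2 in NCI-H929 and 4 in MM1.S at an unadjusted p below 0.05, beside the same shares). Median differences over the chemokine receptors were 0.055 in NCI-H929 and −0.035 in MM1.S, and over the integrin activation genes −0.10 and −0.045, beside −0.045 and 0.005 over all genes. The calls with the hairpin were fragile. Among 17 alternatives, those of RGS16, ESRP1 and ALCAM in MM1.S were lost in 8 each, those of FN1 and SDC1 in 11 each, and that of CCND2 in NCI-H929 in 15. In the difference between the lines, the calls of RGS16 and ESRP1 were lost in 9 of 16 alternatives each and that of CCND2 in 10. The sizes moved less than the calls, and no sign changed. In MM1.S the difference ran from −1.15 to −0.92 for RGS16, −1.05 to −0.87 for ESRP1 and −0.865 to −0.734 for ALCAM. FN1 ran from −0.92 to −0.74 and SDC1 from 0.495 to 0.566 there, and CCND2 from −1.155 to −0.64 in NCI-H929.

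RGS16 shortens the G protein signal of chemokine receptors. It was at 5.75 and 5.89 with shSIRT6 and at 6.97 and 6.74 with scramble in MM1.S, a log2 difference of −1.035 ± 0.12 (limma adjusted p = 0.0165). In NCI-H929 it was at 8.65 and 8.49 with shSIRT6 and at 7.79 and 7.83 with scramble, a difference of 0.76 ± 0.12 that was not called (adjusted p = 0.177). The hairpin effect differed between the lines by 1.795 ± 0.17 (adjusted p = 0.0170), opposite in sign to the difference of CCR1. Of the 12 tested genes of chemokine receptor signalling it was the only one called in MM1.S.

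FN1, fibronectin, is a matrix ligand of integrin alpha 4 beta 1. In MM1.S it was at 5.78 and 5.96 with shSIRT6 and at 6.61 and 6.79 with scramble, a fall of 0.83 ± 0.13 (limma adjusted p = 0.0368). In NCI-H929 it was at 4.47 and 4.30 with shSIRT6, against 4.56 and 4.35 with scramble, and the groups overlapped. It was the only one of 14 tested ligands and counter-receptors called in MM1.S. CXCL12, the ligand of CXCR4, picked after its values were seen, ranged from 4.02 to 4.52 over all arrays with overlap between all groups.

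ALCAM (CD166), a homophilic adhesion molecule, was at 5.92 and 5.79 with shSIRT6 and at 6.68 and 6.63 with scramble in MM1.S, a fall of 0.80 ± 0.12 (limma adjusted p = 0.0325). In NCI-H929 both shSIRT6 arrays (6.20 and 5.93) were also below both scramble arrays (6.39 and 6.38). The difference there, −0.32 ± 0.12, was not called (limma adjusted p = 0.292). Nor was the difference of the effect between the lines (0.48, adjusted p = 0.275). SDC1 (CD138), the heparan sulphate proteoglycan of plasma cells, was at 8.73 and 8.72 with shSIRT6 and at 8.18 and 8.23 with scramble in MM1.S, a rise of 0.52 ± 0.091 (adjusted p = 0.0461). In NCI-H929 SDC1 was at 8.56 and 8.64 with shSIRT6, against 8.69 and 8.66 with scramble. ALCAM and SDC1 were 2 of 30 tested adhesion molecules of plasma cells, and 28 were not called in MM1.S.

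ESRP1 is a splicing regulator known to set which CD44 exons are used in epithelial cells. It was at 5.04 and 5.22 with shSIRT6 and at 6.17 and 6.01 with scramble in MM1.S, a fall of 0.96 ± 0.12 (limma adjusted p = 0.0188), and at 3.89 and 3.70 with shSIRT6 and 3.37 and 3.43 with scramble in NCI-H929 (difference 0.395 ± 0.12, adjusted p = 0.248). The effect differed between the lines by 1.355 ± 0.17 (adjusted p = 0.0417). On each NCI-H929 array ESRP1 lay below the median of all rows (medians 3.89 to 3.95). Whether its signal there exceeds the background of its probes was not tested. The single CD44 row gives 1 value for the gene and cannot show which exons were used. CCND2 (cyclin D2), a target of MAF, fell by 1.08 ± 0.099 in NCI-H929 (adjusted p = 0.0484), with 6.86 and 6.71 with shSIRT6 against 7.89 and 7.84 with scramble. With the mean of its rows in place of the highest row it was at −0.64 and not called (adjusted p = 0.168), and its difference between the lines was −0.805 in place of −1.21 (adjusted p = 0.101).

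**Figure D5:**
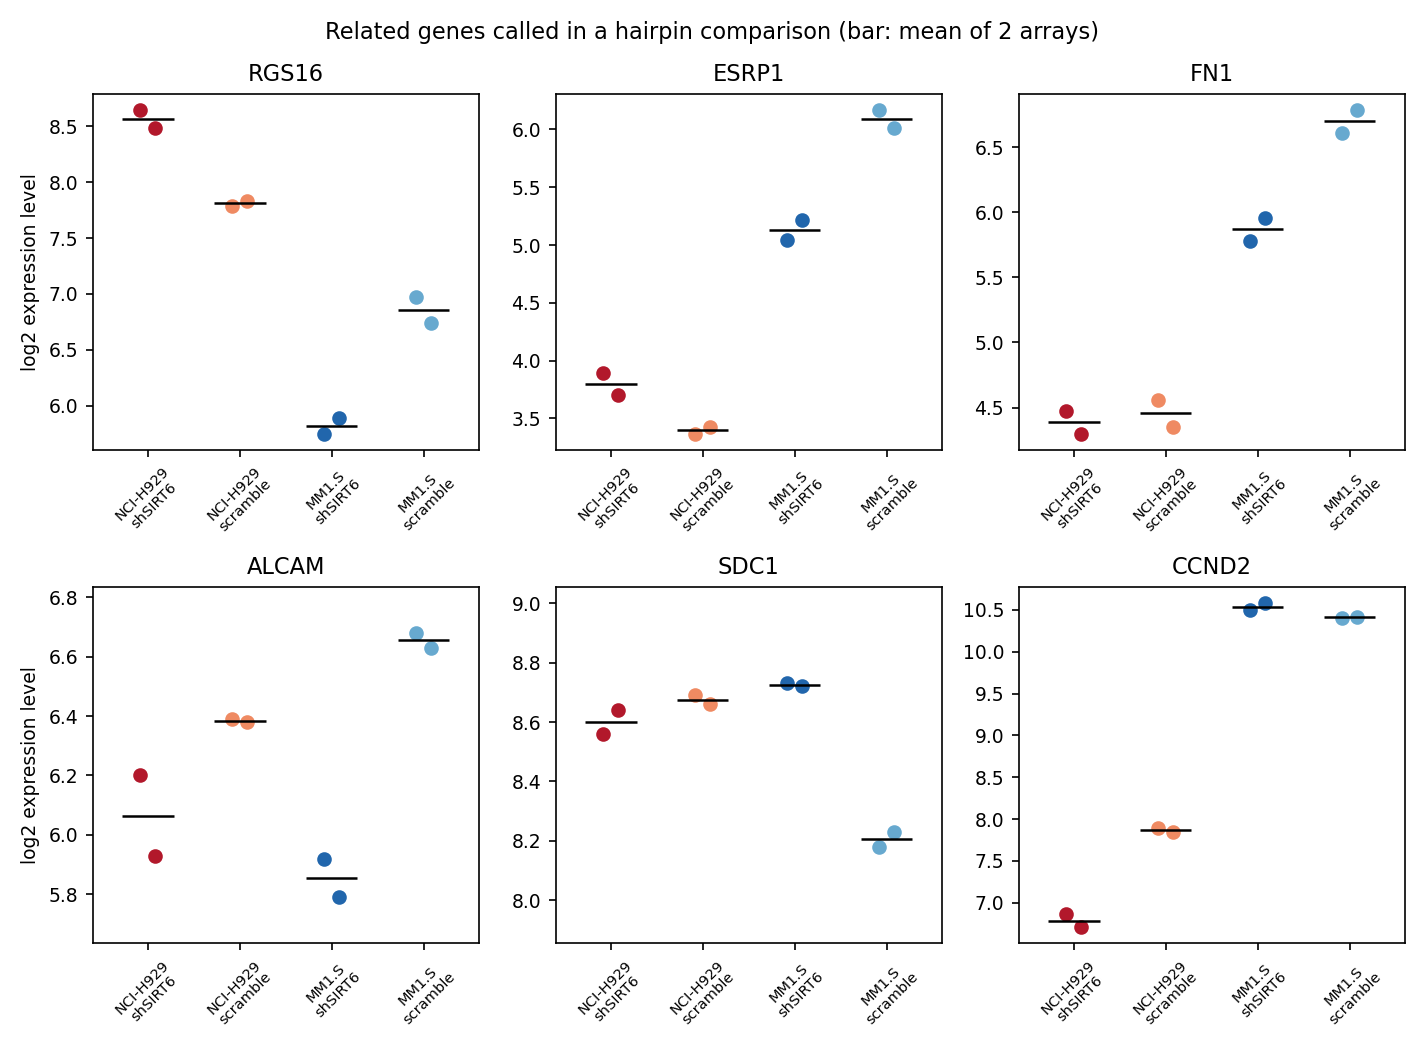
Log2 expression level (vertical axis, a range of its own in each panel) of the 6 related genes called in a hairpin comparison, with NCI-H929 left of MM1.S and shSIRT6 left of scramble; points are arrays and bars the mean of 2. RGS16 and ESRP1 lie lower with shSIRT6 in MM1.S and higher in NCI-H929, where the differences were not called.

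Between the lines the surrounding genes are given with the scramble arrays, where 38.3% of all genes were called and the median difference over all genes was 0.03. Of 13 tested chemokine receptors 5 were lower in NCI-H929 and 0 higher (median −0.23). Among them CCR2 (−2.045 ± 0.16), XCR1 (−1.22 ± 0.14) and CCRL2 (−0.765 ± 0.11) were lower with shSIRT6 too. On the NCI-H929 scramble arrays CCRL2 (3.53 and 3.75) lay below the medians of all rows (3.89 and 3.91). CCR2 (4.06 and 3.82) lay near them. Whether these signals exceed the background of their probes was not tested. Of 12 tested signalling genes 8 were higher and 2 lower (median 0.5225), against 4 higher and 2 lower with shSIRT6 (median 0.2275). RGS1, a brake on chemokine receptor signalling, was lower, at −4.46 ± 0.10, with 5.82 and 5.65 in NCI-H929 against 10.19 and 10.20 in MM1.S. RGS19, of the same family, was higher by 2.305 ± 0.10. GRK6, a kinase that desensitises CXCR4, was higher by 2.15 ± 0.11, and ELMO1, which couples receptors to Rac, was lower, at −1.035 ± 0.096.

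Of 21 tested genes of integrin activation and linkage 4 were higher and 6 lower (median 0.045). FERMT3 (kindlin-3), the kindlin of blood cells, was higher in NCI-H929 by 1.74 ± 0.095, and FERMT1 (kindlin-1), that of epithelia, was lower, at −3.315 ± 0.14. CYTH1 (cytohesin-1), a regulator of beta 2 integrins, was lower, at −1.435 ± 0.096 and the adaptor LIMS1 at −1.665 ± 0.17. The integrins on which these proteins act were not analysed here.

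Of 14 tested ligands and counter-receptors 3 were higher and 5 lower (median 0.125). ICAM1, the counter-receptor of the beta 2 integrin LFA-1, was at 8.68 and 8.89 in NCI-H929 and at 6.36 and 6.44 in MM1.S, higher by 2.385 ± 0.11, while ICAM3 was lower, at −1.455 ± 0.15. FN1 was lower, at −2.245 ± 0.13 and CCL3, a ligand of CCR1 that myeloma cells secrete, at −0.88 ± 0.097. CCL3 and CCR1 were thus both lower in NCI-H929 with shSIRT6, CCL3 at −1.485 ± 0.097.

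Of 30 tested adhesion molecules 11 were higher and 9 lower in NCI-H929 (median 0.02). JAM3 was at 2.23 ± 0.16, CD53 at 0.93 ± 0.093, CD9 at −2.08 ± 0.18 and CD47 at −1.05 ± 0.099. On the MM1.S scramble arrays JAM3 (4.19 and 3.71) lay near the medians of all rows (3.88 and 3.92). Whether its signal there exceeds the background of its probes was not tested. Of 12 tested CD44 partners and shedding enzymes 1 was higher, EZR (ezrin, which ties CD44 to actin), by 0.735 ± 0.095. There 5 were lower, among them ESRP1 (−2.69 ± 0.12), ADAM10, a protease that sheds CD44 (−1.035 ± 0.098), and SRGN (−0.765 ± 0.11). MAF was lower, at −1.455 ± 0.13, with 4 of 5 tested genes of its list lower, among them CCND2 (−2.545 ± 0.099) and DEPTOR (−0.88 ± 0.098). Adjusted p over the genes named from the lists for the lines ran from 7.46e-07 for RGS1 to 0.00124 for CCRL2 (limma).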

How the data were processed

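The deposited table holds log2 expression values, 1 row per transcript cluster and 48226 rows, which the authors made with RMA and the Transcriptome Analysis Console, with hg19 as the build, per the submitters' processing notes. Of these rows 16098 carry 1 gene symbol in the platform annotation and 32128 are unnamed here. For each gene the row with the highest mean was kept, and 12734 genes above the 30th percentile of all rows (3.045) were tested. Group means (4) were fitted to 8 arrays with limma 3.58.1 under R 4.3.3 (4 residual and 3.43 prior degrees of freedom). Calls are at a Benjamini-Hochberg adjusted p below 0.05. The fit was also run on simulated data, which cannot show whether the arrays of a group were separate cultures. An exact test of 2 against 2 arrays cannot go below p = 0.333. The number of arrays limits the precision. The genes and lists were chosen with earlier results of these data known. Named genes are the 5 receptors, SIRT6, list genes called in a hairpin comparison, and up to 4 per list called between the lines with both constructs. Deviations of replicate 1 from its group mean were nearly uncorrelated between constructs (−0.00108 in NCI-H929 and 0.0767 in MM1.S). This cannot exclude a pairing by replicate number. Alternatives covered normalization, filter, rows, samples, block, variance model, weights and left-out arrays.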

Additional observations from a re-analysis of the deposited data

Results flagged for a closer look

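Several hairpin effects differed between the lines among the tested genes of all lists, markers included. By limma's test of the difference (NCI-H929 minus MM1.S, log2) RGS16 differed by 1.795 (adjusted p = 0.0170), ESRP1 by 1.355 (0.0417) and CCND2 by −1.21 (0.0371). That test called 0.204% of all genes. Among 16 alternatives these calls were lost in 9 for RGS16, in 9 for ESRP1 and in 10 for CCND2. With the mean of its rows CCND2 differed by −0.805 and was not called. For other list genes both shSIRT6 arrays were below scramble in NCI-H929 and above it in MM1.S, as for 6.24% of all genes, and the test of the difference was not passed. These were CCR1 (−1.265, limma adjusted p = 0.0611), CCL4, a chemokine (−0.805, 0.201), XCR1 (−0.74, 0.218), SDC1 (−0.595, 0.153), CD63 (−0.49, 0.249), MCAM (−0.475, 0.246), FERMT3 (−0.46, 0.229), RGS19 (−0.42, 0.272), ACKR2 (−0.385, 0.361), BSG (−0.305, 0.399) and SELPLG (−0.235, 0.469). The arrays separated the opposite way, again without passing that test, for CYTIP (0.505, limma adjusted p = 0.254) and IRF4 (0.39, 0.262). Of the genes named here, ACKR2 and MCAM lay below the median of all rows on every array, and ESRP1 did so in NCI-H929.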

How the results depend on the processing

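Counts of called receptors between the lines kept to 4 with shSIRT6, and with scramble ranged from 2 to 4, when each array was left out in turn; in the hairpin comparisons they stayed at 0 to 0. limma with trend and robust estimation called 1 receptor in NCI-H929, 1 in MM1.S, 1 in the mean of both lines and 1 in the difference between the lines, and the filter at the 50th percentile called 1 in that difference; the cause was not tested. With the replicate number as a block the counts were 4 and 3 between the lines and 0 in the hairpin comparisons, but no gene at all (0) was called for the hairpin in MM1.S, where 169 were called without it. The labels do not say whether equal replicate numbers mark paired arrays. Weak correlations of deviations cannot exclude that, so which of these fits suits the design was not settled. Over all alternatives, genes called for the hairpin ranged from 0 to 196 in NCI-H929 (3 in the report's setting) and from 0 to 948 in MM1.S, from 0 to 908 in the mean (11) and from 0 to 424 in the difference (26). Between the lines they ranged from 3784 to 5224 with shSIRT6 and from 3713 to 5314 with scramble. With 2 arrays a group and 1 row a gene, hairpin differences of the sizes seen here for CXCR4, CCR10, CD44 and NCAM1 could not be told from 0. Those of CCR1 were not called in the report's setting either (limma adjusted p = 0.185 in NCI-H929 and 0.0889 in MM1.S).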
